A study of Ovis aries with 13 samples.

Results

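The 3 isoforms of glycogen phosphorylase, PYGM, PYGL and PYGB, were followed in the left ventricle of sheep hearts around birth. They are 3 of the 1015 genes that could be named on an Agilent 1-colour array. Every non-control probe whose gene name or RefSeq transcript was one of them was taken, which gave 5 of 15008 probes. PYGM had 1 probe, and PYGB and PYGL had 2 each. The newborn group held 7 lambs on day 1 of life (3 male, 4 female), and the fetal group held 6 fetuses at gestational day 142 (4 male, 2 female). No genotype, breed or treatment was given for either group, and ventricular tissue was frozen at collection. Total RNA of 1 animal was hybridised to each array. In each group some animals carried the same number under different letters (9 animals, 4 numbers), and what they share was not stated. The design text names 7 fetuses, of which 6 were analysed here.

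Values were processed spot intensities on a log2 scale, relative to the 75th percentile of the same array, so that a value of 1 lies 1 log2 unit above that percentile. The 75th percentile was 219 to 349 intensity units on newborn arrays and 241 to 367 on fetal arrays. Probes well above background made up 64.3% to 70.2% of each newborn array and 62.7% to 71.4% of each fetal array. With 13 arrays in all, precision is set by how few animals were measured. The tissue is a mixture of cell types, and a smaller number of cells of a type cannot be told apart from less RNA per cell. None of the 14 cardiomyocyte markers on the marker list had a named probe, so the labelled tissue could not be checked against them.

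Glycogen phosphorylase removes glucose units one at a time from the ends of glycogen chains and releases them as glucose 1-phosphate. PYGM is the isoform of muscle, PYGL that of liver and white blood cells, and PYGB that of brain, and in human heart both the muscle and the brain form are made. Phosphorylase kinase switches the enzyme on by phosphorylation after adrenergic or calcium signals, AMP activates the muscle form directly, and protein phosphatase 1 switches it off. The fetal heart is rich in glycogen, a reserve used when oxygen is short.

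The probes are shown because the isoforms can be read separately only as far as their probes differ. They are written 5′ to 3′ from the deposited files, the PYGM probe whole at 60 bases and the first 30 bases of each other probe.
PYGM A_70_P051351: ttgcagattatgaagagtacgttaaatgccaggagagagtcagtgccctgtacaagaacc
PYGB A_70_P012612: tACTTGTTTTAGCAACGGAAAATAGCACTT
PYGB A_70_P012611: ACTTGTTTTAGCAACGGAAAATAGCACTTc
PYGL A_70_P030421: gtgagtcatgaaacccttggaacctattat
PYGL A_70_P030422: ttctttatgaaccacaacaaaagggagaaa
Capitals mark the bases that appear in both printed PYGB stretches. The 2 PYGB probes start at bases 3264 and 3265 of their transcript and share 59 of 60 bases, so they are nearly the same measurement. The 2 PYGL probes start at bases 3107 and 3006, which is 101 bases apart. The PYGM probe starts at base 2393. Between probes of different isoforms the longest shared run was 7 bases. Hybridisation to other transcripts was not tested.

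PYGM, the muscle isoform, was higher on most newborn arrays, but its change did not pass the test. On newborn arrays it ran between 3.13 and 4.22 with a median of 3.71, and on fetal arrays between 3.21 and 3.56 with a median of 3.28. The groups overlapped: 5 newborn arrays lay above all 6 fetal arrays, newborn 6 (3.54) lay just under the highest fetal array, and newborn 3 (3.13) lay below all fetal arrays. The mean was 3.71 ± 0.34 on newborn arrays (SD, n = 7) and 3.33 ± 0.13 on fetal arrays (SD, n = 6). The newborn minus fetal difference was 0.37 (SE 0.145, 95% interval 0.06 to 0.68), a 1.29-fold higher mean in newborns, with an adjusted p of 0.0764 in limma. Without newborn 3 the difference was 0.47 and passed (adjusted p = 0.0162). Over the other arrays left out in turn, it lay between 0.29 and 0.42 and did not pass. The difference was 0.14 on slide 1 (3 newborn, 4 fetal arrays) and 0.58 on slide 2 (4 newborn, 2 fetal arrays). PYGM was spotted 5 times on each array, with a coefficient of variation between spots of 1.62% to 7.01%. It was 95.6 to 234 times its local background and saturated on no array. Its highest values were on newborn 5 (4.22) and newborn 7 (3.97).

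None of the 5 phosphorylase probes passed the test for age, where 2366 of all 10255 tested probes (23.1%) did at an adjusted p under 0.05. Of all tested probes 12% were higher in newborns and 11.1% were lower. The median change of all tested probes was 0.03. In that distribution 15.4% of probes had a higher change than PYGM, and 18.7% had a lower change than the brighter PYGL probe.

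PYGB, the brain isoform, varied by more within each group than between the groups. Its brighter probe, A_70_P012612, ran between 0.23 and 1.43 on newborn arrays with a median of 0.75, and between 0.70 and 1.51 on fetal arrays with a median of 0.87. Newborn 3 (0.23), newborn 4 (0.26) and newborn 2 (0.62) lay below all fetal arrays, while newborn 6 (1.43) was above 5 of the 6 fetal arrays. On fetal arrays the highest values were those of fetal 2 (1.51) and fetal 3 (1.33). The mean was 0.76 ± 0.44 on newborn arrays (SD, n = 7) and 1.00 ± 0.34 on fetal arrays (SD, n = 6). The newborn minus fetal difference was -0.24 (SE 0.202, 95% interval -0.67 to 0.19, adjusted p = 0.403). It was -0.45 on slide 1 and 0.0032 on slide 2. With 1 array left out it ran from -0.35 (without newborn 6) to -0.14 (without fetal 2). The interval holds a fall as well as a small rise, so the direction of change was not settled with these arrays.

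The second PYGB probe, A_70_P012611, gave a difference of -0.24 (SE 0.209, adjusted p = 0.419), and its values followed those of the first with a Pearson r of 0.992 over the 13 arrays. Its 5 spots on each array had a coefficient of variation of 2.11% to 6.77%. Both probes showed the spread of PYGB between animals of a group. Since they share nearly all their bases, they do not check each other's target.

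PYGL, the liver isoform, had the lower mean in newborns on both of its probes, and neither passed the test. The brighter probe, A_70_P030421, ran between 0.90 and 1.83 on newborn arrays with a median of 1.42, and between 1.54 and 2.06 on fetal arrays with a median of 1.76. The groups overlapped: 4 newborn arrays lay below all fetal arrays, and fetal 1 (2.06) and fetal 3 (1.84) lay above all newborn arrays. The mean was 1.45 ± 0.32 on newborn arrays (SD, n = 7) and 1.76 ± 0.19 on fetal arrays (SD, n = 6). The newborn minus fetal difference was -0.31 (SE 0.145, 95% interval -0.62 to 0.0041, adjusted p = 0.137). It was -0.18 on slide 1 and -0.34 on slide 2, and ran from -0.37 to -0.21 with 1 array left out.

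The other PYGL probe, A_70_P030422, was dimmer, at 4.09 to 13.4 times its local background. It ran between -1.48 and -0.23 on newborn arrays with a median of -0.83, and between -0.94 and 0.02 on fetal arrays with a median of -0.21. The difference was -0.45 (SE 0.216, 95% interval -0.91 to 0.0089, adjusted p = 0.139). The 2 PYGL probes, which share no run longer than 6 bases, followed each other over the 13 arrays with a Pearson r of 0.915. Newborn 7 was the lowest array on both PYGL probes (0.90 and -1.48) and the second highest for PYGM (3.97).

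**Figure D1:**
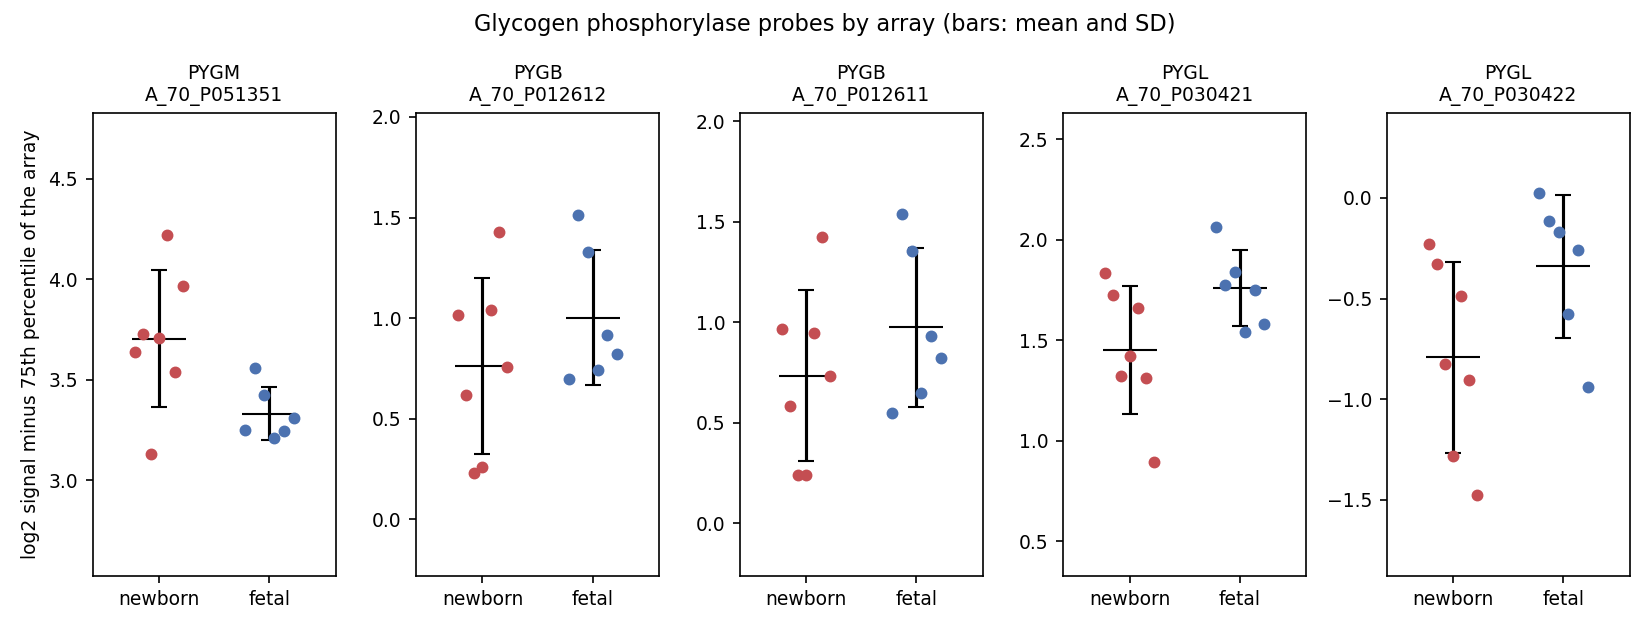
Each point is 1 array, the vertical axis is the log2 signal minus the 75th percentile of that array, and bars give the mean and SD of the 7 newborn and 6 fetal arrays. Every panel spans the same number of log2 units, and the groups overlap in all 5, with the PYGM mean higher and the PYGB and PYGL means lower in newborns.

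The values of the 3 isoforms were only weakly correlated over the 13 arrays, and the r of PYGM with PYGB was higher once group means were removed. Over the 13 arrays PYGM had a Pearson r of 0.157 with the brighter PYGB probe and of -0.27 with the brighter PYGL probe, and PYGB and PYGL had an r of 0.264. After the group means were taken out these values were 0.455, 0.073 and 0.123. They are descriptions over 13 arrays that share a platform and a scaling.

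The balance between the isoforms was read as the log2 ratio of their brightest probes on the same array. The share of each isoform was not computed, since probes differ in how brightly they report the same amount of transcript. Only the difference in a ratio between newborn and fetal arrays is interpretable. A within-array ratio needs no scaling between arrays when signals are only divided by 1 value per array, and it shows unequal change, not which isoform changed.

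PYGM rose relative to PYGL in newborns. Set against the fetal mean, the log2 ratio of PYGM over PYGL lay between 0.23 and 1.498 on newborn arrays and between -0.39 and 0.21 on fetal arrays. All 7 newborn arrays lay above all 6 fetal arrays. Of the 10139 tested probes that had no missing array, 3.37% had every newborn array above every fetal array. That share is of single probes, and none was computed for ratios between probes. The newborn minus fetal difference of the ratio was 0.68, with SDs of 0.45 on newborn and 0.22 on fetal arrays, a 1.601-fold higher ratio. The two-sided exact permutation test over all 1716 splits gave p = 0.00291, and 0.00874 adjusted over the 3 isoform pairs. This test, used for each ratio, counted every array as independent, although some animals of a group carried the same number. The difference was 0.32 within slide 1 and 0.93 within slide 2, with exact permutation p = 0.0571 and 0.0667 (adjusted p = 0.0857 and 0.2). The smallest p that so few arrays allow is 0.0286 on slide 1 and 0.0667 on slide 2, so slide 2 could not pass. With the mean of the 2 PYGL probes in place of the brighter one, the difference was 0.75 (adjusted p = 0.0175).

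PYGM also rose relative to PYGB, with 6 of 7 newborn arrays above all fetal arrays. The log2 ratio set against the fetal mean lay between -0.22 and 1.12 on newborn arrays and between -0.28 and 0.22 on fetal arrays. Newborn 6, where PYGB was highest among newborns, was the exception at -0.22, and newborn 4, where PYGB was low, was highest. The difference of the ratio was 0.61, a 1.53-fold higher ratio (two-sided exact permutation p = 0.0146, adjusted p = 0.0219). The call was lost without fetal 2 (0.56) and without fetal 3 (0.56), both at an adjusted p of 0.0511. It was lost with the background of each spot corrected by normexp (0.57, adjusted p = 0.0656). Within slide 1 and slide 2 the difference was 0.59 and 0.58, at adjusted p = 0.0857 and 0.467.

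The ratio of PYGB over PYGL did not pass the test. Its newborn minus fetal difference was 0.07, with SDs of 0.51 on newborn and 0.37 on fetal arrays (two-sided exact permutation p = 0.797). It was -0.27 on slide 1 and 0.35 on slide 2, and ran from -0.07 to 0.17 with 1 array left out. The smallest p this design allows is 0.000583. Newborn 6 and newborn 7 lay above all fetal arrays and fetal 1 lay lowest of all 13.

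**Figure D2:**
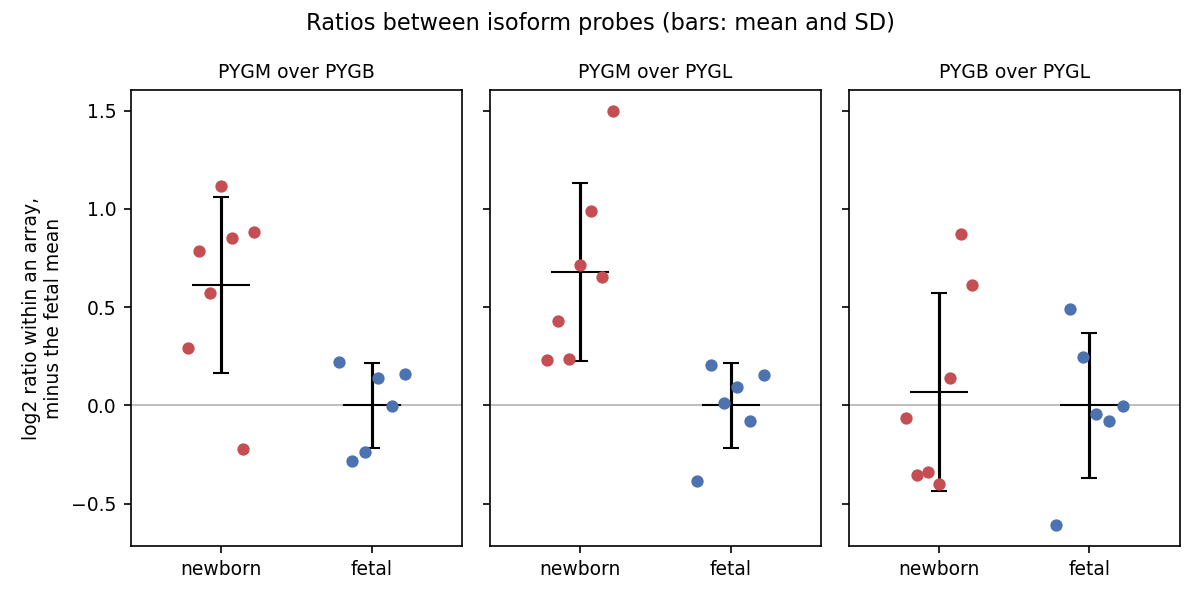
Each point is the log2 ratio of the brightest probes of 2 isoforms on 1 array, minus the mean of the fetal arrays (vertical axis), and bars give the mean and SD of 7 newborn and 6 fetal arrays. The newborn points of PYGM over PYGL all lie above the fetal points, 6 of 7 do so for PYGM over PYGB, and the groups overlap for PYGB over PYGL.

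Sex was given for every animal and was compared with age in the model. PYGM was lower in males by 0.30 log2 units (male minus female -0.30, SE 0.132, unadjusted p = 0.0396, adjusted p = 0.999 in limma). Its mean was 3.47 in the 3 newborn males and 3.88 in the 4 newborn females, and 3.28 in the 4 fetal males and 3.43 in the 2 fetal females. The male minus female differences of the brighter PYGB and PYGL probes were -0.11 (SE 0.213) and 0.05 (SE 0.155). Of all tested probes 1 (0.00975%) passed for sex, with 331 at an unadjusted p under 0.05. With sex in the model the age difference of PYGM was 0.30 (adjusted p = 0.121). The age change of PYGM was 0.18 in males and 0.45 in females, and the interaction (-0.27, SE 0.266) did not pass (adjusted p = 0.986). The interaction passed in limma for 0 probes (0% of those tested), with 507 at an unadjusted p under 0.05.

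Around the phosphorylases, 68 genes of glycogen metabolism and its control were listed, of which 14 had a named probe and 12 were tested. In newborns 2 rose (CALM2 and FBP2, the second of them undetected in fetal arrays), 2 fell (HK1 and INSR) and 8 did not pass. Of 648 named genes read by their brightest probe, 23% passed for age: 13.6% were higher and 9.41% were lower in newborns. The median change of the 12 was 0.09, and that of the 648 was also 0.09. None of the 9 glycogen synthesis genes, the 2 breakdown and debranching genes or the 15 genes of the glycogen phosphatase and its partners had a named probe.

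The phosphorylase kinase group had 2 tested genes. CALM2 encodes calmodulin, which is the calcium-binding subunit of the kinase and also serves many other calcium-regulated proteins. It ran between 2.94 and 3.27 on newborn arrays and between 2.33 and 2.998 on fetal arrays, and 5 newborn arrays lay above all fetal arrays. Its mean was higher in newborns by 0.33 (SE 0.113, adjusted p = 0.0484), and this call held in 2 of 14 alternative settings and 2 of 13 runs with 1 array left out. PHKG2, the catalytic subunit of the liver and testis form in human, was named beyond the naming rule, with its values seen. Its newborn mean was -1.44 ± 0.13 and its fetal mean -1.67 ± 0.22 (SD, n = 7 and 6), a difference of 0.23 (SE 0.108) that did not pass (adjusted p = 0.136).

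Of the kinases and hormone signals upstream, 6 genes were tested, 0 rose and 1 fell. INSR, the insulin receptor, ran between -4.71 and -3.81 on newborn arrays and between -3.65 and -2.93 on fetal arrays, with no overlap. All newborn arrays lay below every fetal array for 3.51% of the 10139 tested probes that had no missing array. The difference was -0.80 (SE 0.161, adjusted p = 0.00397). The INSR probe was dim, well above background on 5 of 7 newborn arrays and 6 of 6 fetal arrays. With normexp and the median background of the array, the difference was -0.16 and did not pass (adjusted p = 0.22). The call held in 8 of 12 alternative settings. The others, AKT1 (0.40, adjusted p = 0.0903), PRKAA2 (-0.25, 0.132), ADRB1 (0.23, 0.231), PRKACA (0.14, 0.388) and PRKAR1A (0.04, 0.802), did not pass, named here to complete the group. AKT1 passed without newborn 6 (0.52, adjusted p = 0.00998).

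Of the enzymes that take up or hand on hexose phosphates, 4 were tested, 1 rose and 1 fell. HK1, a hexokinase that phosphorylates glucose, ran between 2.39 and 3.003 on newborn arrays and between 2.96 and 3.31 on fetal arrays, and 6 newborn arrays lay below all fetal arrays. Its difference was -0.45 (SE 0.105, adjusted p = 0.00814), a call held in 11 of 14 alternative settings. FBP2, the muscle fructose 1,6-bisphosphatase, was well above background on 7 of 7 newborn arrays and on 0 of 6 fetal arrays. Its difference passed in limma (adjusted p = 2.7e-05). With fetal values raised to at least the lowest signal well above background on their array, the newborn mean was 7.38-fold higher. That lowest signal is not a detection limit for the FBP2 probe, so 7.38 is not a lower bound. FBP2 thus entered the test only through the newborn group, and its p rests on fetal values under detection. The call held in 11 of 12 alternative settings. The fitted difference, 4.50 as tested, was 1.03 with normexp on the background of each spot (adjusted p = 0.265) and 1.36 with normexp on the median background of the array. The phosphofructokinases PFKM (-0.21, adjusted p = 0.274) and PFKL (0.03, adjusted p = 0.846) did not pass.

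**Figure D3:**
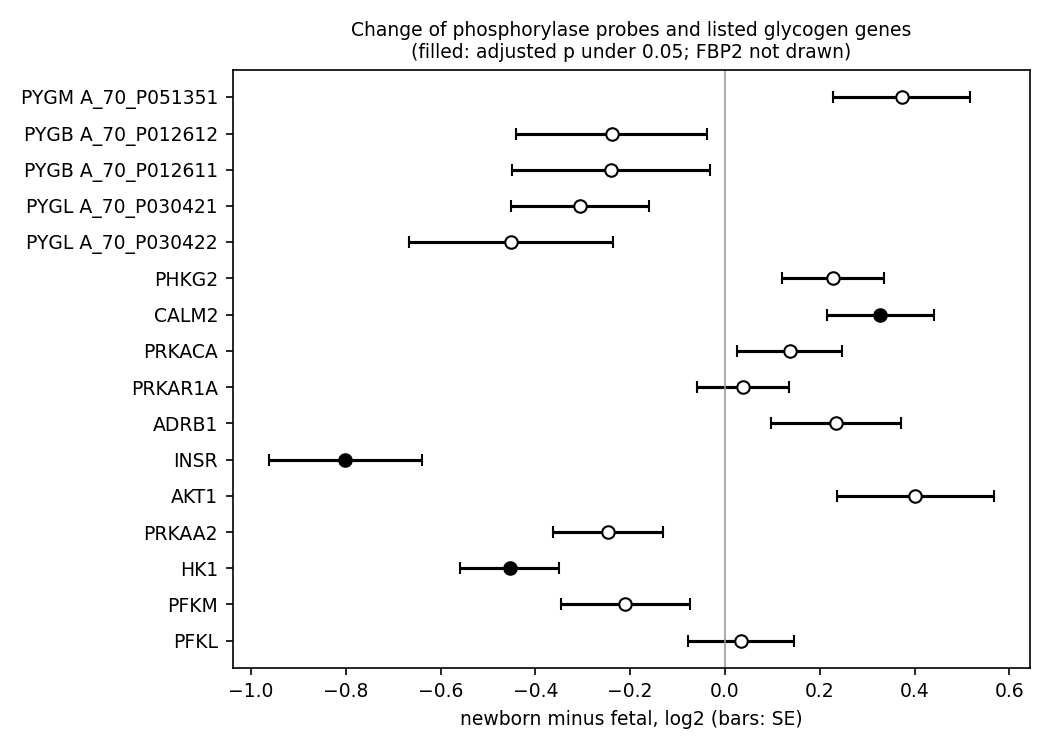
Points are newborn minus fetal differences on the log2 scale and bars are 1 SE, from limma over 7 newborn and 6 fetal arrays, with filled points at an adjusted p under 0.05. The 5 phosphorylase probes are open, with PYGM at 0.37 and the PYGB and PYGL probes between -0.45 and -0.24, while CALM2, INSR and HK1 are filled.

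The genes whose values were most like those of each isoform were taken among 630 named genes on their brightest tested probe. For PYGM the highest Pearson correlations over the 13 arrays were with ENO3 (r = 0.89, Spearman rho = 0.786), IRF1 (0.804, rho = 0.725) and HEXA (0.80, rho = 0.863). ENO3 is the muscle enolase of glycolysis, IRF1 a transcription factor of the interferon response, and HEXA a lysosomal hexosaminidase subunit. After the group means were taken out, the highest were ENO3 (0.857), HEXA (0.793) and CTSD (0.761), the lysosomal protease cathepsin D. With the group means left in, the r of CTSD was 0.155 (rho = -0.104). Without newborn 5 and newborn 7, the arrays farthest from the median of PYGM, the r with ENO3 was 0.788.

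ENO3 and PYGM ran in parallel among newborns. ENO3 lay between 4.63 and 5.52 on newborn arrays and between 4.81 and 4.91 on fetal arrays, and both genes were lowest on newborn 3 and highest on newborn 5. The r was 0.918 among the 7 newborn arrays and 0.01 among the 6 fetal arrays, where ENO3 spanned a far narrower range. The mean of ENO3 differed by 0.23 (SE 0.128, adjusted p = 0.204). These arrays share a scaling to 1 percentile each, and the difference between the 2 correlations was not tested.

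For PYGB the same 3 genes led on both measures. DCN, the matrix proteoglycan decorin, had an r of 0.838 (rho = 0.72), BMP4, a secreted growth factor, 0.824 (rho = 0.846), and CYP2J, named as in the files, 0.818 (rho = 0.841). After the group means were taken out these were 0.822, 0.811 and 0.827. Without fetal 2 and newborn 6, the r with CYP2J was 0.667 and that with DCN 0.79. None of the 3 passed the test for age, with differences of -0.19, -0.31 and -0.08.

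For PYGL the highest over the 13 arrays were PSIP1, a chromatin-binding coactivator (r = 0.771, rho = 0.824), complement C3 (0.769, rho = 0.725) and IL13RA1, an interleukin receptor chain (0.749, rho = 0.687). After the group means were taken out they were SERPINF1, a secreted serpin (0.851), and the integrin chains ITGB6 (0.743) and ITGA5 (0.741). Without newborn 7 and fetal 1, the arrays farthest from the median of PYGL, the r with PSIP1 was 0.629 and that with IL13RA1 0.506. With the group means left in, the r was 0.508 for SERPINF1, 0.153 for ITGB6 and 0.681 for ITGA5 over the 13 arrays. Without newborn 7 and fetal 1 these were 0.288, -0.145 and 0.341. Of the genes named for PYGL, only ITGB6 passed the test for age in limma (0.74, adjusted p = 0.0419).

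Markers of other cell types that hold these isoforms moved with age, or varied between arrays, in part. Of 19 skeletal muscle markers, 3 had a named probe (TNNC2, MYLPF and ENO3). Of these 1 rose (MYLPF, by 0.31, adjusted p = 0.0352), where 13.6% of named genes rose. The log2 of their summed signal lay between 4.73 and 6.43 on newborn arrays and between 4.91 and 5.47 on fetal arrays. ENO3 was high on every array (4.63 to 5.52 on newborn, 4.81 to 4.91 on fetal arrays), also where TNNC2 was low. On newborn 7 ENO3 was 5.17 and TNNC2 -0.14, so the sum there was mostly ENO3. Neither that sum nor ENO3 alone can thus be read as a measure of skeletal muscle. TNNC2, the fast skeletal troponin C, was high on newborn 1, 2, 4 and 5 (4.63 to 5.30) and on fetal 1, 4 and 6 (3.65 to 3.84), and low on the others (-0.72 to -0.14). The r of TNNC2 with PYGM was 0.31 over the 13 arrays, and newborn 7 had the second highest PYGM (3.97) with a TNNC2 of -0.14. Among newborn arrays the r was 0.474, and among fetal arrays it was -0.65. MYLPF, a fast skeletal myosin light chain, ran between 0.03 and 0.52 on newborn arrays and between -0.28 and 0.04 on fetal arrays. It did not show the high and low sets of TNNC2. Its r with PYGM was 0.481 over the 13 arrays (0.173 among newborn and -0.33 among fetal arrays), and ENO3 had the r of 0.89 given above. The part of skeletal muscle RNA in the PYGM values was not tested.

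**Figure D4:**
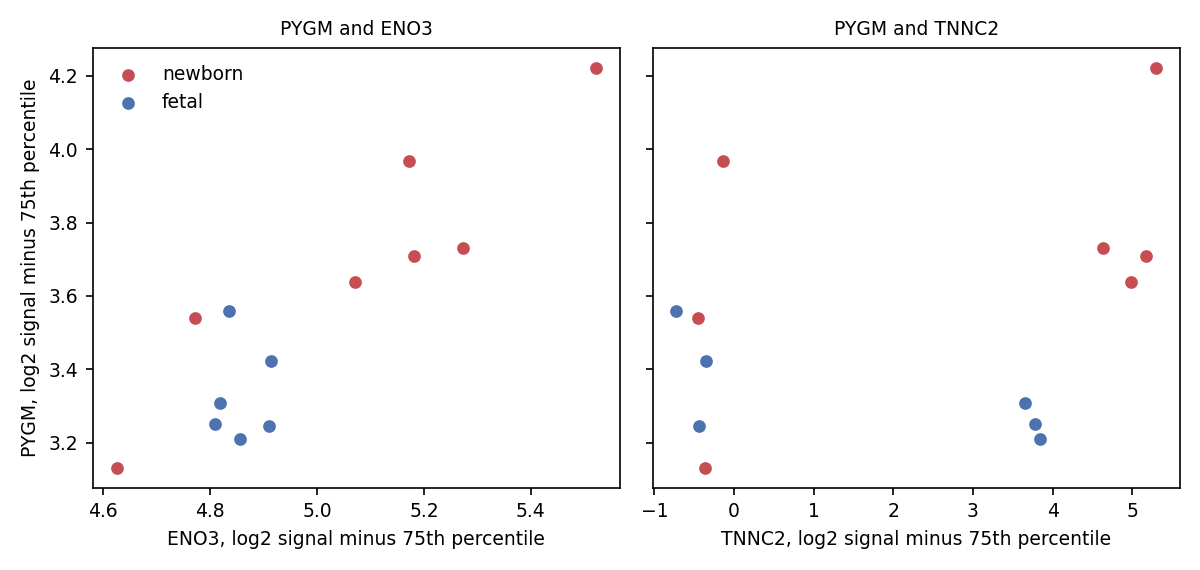
Each point is 1 array (7 newborn, 6 fetal), with PYGM on the vertical axis against ENO3 (left) and TNNC2 (right), all as log2 signal minus the 75th percentile of the array. PYGM and ENO3 lie along a line among newborn arrays (r = 0.918), and TNNC2 falls into a high and a low set of arrays, each with newborn and fetal arrays.

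Of 8 liver markers, 1 was tested (APOA1, change -0.03, adjusted p = 0.931), and ALB, SERPINA1, TTR and AHSG were well above background on too few arrays for a test. Of 14 myeloid markers, 5 were tested and 3 rose (CD14, FCGR1A and FCER1G), where 13.6% of named genes rose. FCGR1A was well above background on 7 of 7 newborn arrays and 2 of 6 fetal arrays, and so entered the test through the newborn group. The myeloid list had a log2 summed signal of 0.33 to 1.43 on newborn arrays and -0.19 to 0.50 on fetal arrays. Of 6 nerve and glia markers, 1 was tested (GFAP) and did not pass, with a log2 summed signal of -1.08 to 0.23 on newborn arrays and -0.99 to -0.23 on fetal arrays. Other lists also moved with age, where 13.6% of named genes rose and 9.41% fell. Of 6 erythroid markers 2 were tested and both fell (HBB fell by 1.53 and AHSP fell by 1.73 on the log2 scale). Their log2 summed signal was 4.67 to 6.10 on newborn arrays and 5.75 to 8.01 on fetal arrays. AHSP was well above background on 2 of 7 newborn arrays and 5 of 6 fetal arrays, so its difference rests partly on newborn values under detection. Of 6 endothelial markers 3 were tested and all 3 fell (PECAM1, FLT1 and KDR), with a log2 summed signal of 1.92 to 2.64 on newborn arrays and 2.48 to 2.82 on fetal arrays. Of 4 smooth muscle markers 1 was tested and rose (CNN1, by 1.83), at 3.29 to 6.39 on newborn arrays and 1.86 to 2.84 on fetal arrays. Of 4 adipocyte markers 2 were tested and neither passed, and of 8 neutrophil markers 0 were tested. The part of any of these cell types in the PYGM, PYGL and PYGB values was not tested.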

How the data were processed

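Each sample was 1 array file. Per the file headers, the authors scanned 1-colour Agilent arrays with Feature Extraction 10.1.1.1, and the deposited processed intensity values are background-subtracted and detrended within an array, with no scaling between arrays. The deposited series matrix holds log2 values for 7041 probes. Their scale was judged from the values, how they were scaled was not stated, and they served as an alternative only.

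Control spots and outlier-flagged spots were left out, and spots of a probe were averaged. Log2 intensities were taken relative to each array's 75th percentile. Testing was limited to the 10255 probes that stood well above background on 6 or more of the 13 arrays. limma 3.58.1 in R 4.3.3 gave moderated tests, with Benjamini-Hochberg adjustment over all tested probes and a threshold of 0.05. Isoform ratios were tested by exact permutation over arrays. The scripts were tested on simulated data.

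Names came from the files, RefSeq accessions and, for 17 probes, the files' descriptions. Of 15008 probes, 1640 had 1 gene name, 14 had several, 8 had conflicting ones and 13346 had none. A gene was read by its brightest tested probe.

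The members, gene lists and tests were chosen with earlier results of these data known. By the naming rule the text names every phosphorylase probe, listed glycogen genes that passed or had the smallest p of their role, and the 3 genes most like each isoform on both measures. Nothing in the labels says what animals sharing a number have in common, and p-values measure the spread between arrays. Alternatives were background correction, scaling, the series matrix, filters, slide, sex, replicate number, animal number, trended and robust eBayes, and each array left out. Not every result was run under each, and the isoform ratios were not run with sex or animal number taken into account.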

Additional observations from a re-analysis of the deposited data

How the results depend on the processing

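No age difference of a phosphorylase probe passed in any of 14 alternatives, where PYGM ranged from 0.14 to 0.58. PYGM ranged from 0.29 to 0.47 with 1 array left out, the highest being the run without newborn 3 (adjusted p = 0.0162), where it passed. Probes called for age numbered 48 with normexp on the background of each spot, 356 within slide 1, 23 within slide 2 and 1326 with the replicate block. They numbered 1727 to 3116 with 1 array left out. Glycogen genes called higher numbered 0 with normexp on the background of each spot and 1 under each of normexp on the array's median background, quantile normalization, the array median, slide as a block, each slide alone and the replicate block. Those called lower numbered 0 with normexp on the background of each spot and within each slide, and 1 with normexp on the array's median background. PYGM over PYGB was 0.57 with normexp on the background of each spot, 0.59 within slide 1 and 0.58 within slide 2. It was 0.57 with the replicate block (adjusted p = 0.141) and 0.53 to 0.75 with 1 array left out. PYGM over PYGL was 0.32 within slide 1, 0.93 within slide 2, 0.54 with the replicate block (adjusted p = 0.0938) and 0.54 to 0.75 with 1 array left out. The block rests on 6 pairs, whose smallest p is 0.0312. Within slides and with the block fewer arrays enter, and for the other changes the cause was not tested. Newborn and fetal arrays of the same replicate number had deviations correlated at -0.07 to 0.05. Whether they share more than that number was not tested. None of the values that passed changed sign. Of all values recomputed, 561 kept both direction and side of the threshold, or their size, and 21 that did not pass changed sign without passing. A further 40 lost their call, 2 gained one, and 16 counts of called probes or genes moved. The difference of PYGB over PYGL was -0.272 within slide 1, -0.0241 with the replicate block and -0.0675 to 0.165 with 1 array left out. PYGB A_70_P012612 was 0.0032 within slide 2. ADRB1 was -0.0177 with normexp on the background of each spot. PRKAR1A was -0.0243 with quantile normalization, -0.0224 with the series matrix, -0.122 within slide 1 and -0.0050 to 0.0805 with 1 array left out. PFKL was -0.0432 within slide 1, -0.0159 with the replicate block and -0.0159 to 0.103 with 1 array left out. The sex difference of PYGL A_70_P030421 was -0.0313 with slide as a block and -0.0416 to 0.124 with 1 array left out. That of PYGB was -0.295 to 0.0252 (A_70_P012612) and -0.310 to 0.0343 (A_70_P012611) with 1 array left out. The second PYGL probe (4.09 to 13.4 times its local background) and INSR (well above background on 5 of 7 newborn arrays) were dim. What this did to their differences was not tested beyond the alternatives.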
